A study of Homo sapiens with 6 samples.

Results

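Potassium channel subunits were examined as the protein-coding genes of the deposited table whose symbol starts with KCN, with KCNG1 left out by the rule that chose them. This gave 94 of the 57819 genes in the table, picked within the table by name and gene type, with no measured value in the rule. RNA came from IMR90 ER:Ras cells, human lung fibroblasts with a Ras protein whose activity is tied to a hormone-binding domain. All 6 libraries were from cells given 200 nM 4-hydroxytamoxifen (4OHT), which switches the fusion protein on, for 3 days. One group of 3 libraries received the control siRNA siSCR, and in the other group of 3 sin-lncRNA, a long noncoding RNA, was knocked down by siRNA. The comparison addressed what loss of sin-lncRNA changes in senescent fibroblasts. The labels do not say whether the replicates came from separate cultures, so p-values measure the spread between these libraries only. All cells are of 1 line, and whether the knockdown used a single siRNA or a pool is not stated in the sources used here.

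Potassium channels let potassium leave or enter the cell along its gradient and so set the membrane potential. Pore-forming subunits fall into voltage-gated, calcium- or sodium-activated, inward rectifier and tandem-pore-domain (K2P) families, and auxiliary subunits alter the gating or trafficking of the pore. In cells that do not fire action potentials, such as fibroblasts, these channels are known for their part in the driving force for calcium entry, in volume control, in proliferation and in the response to stretch.

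The targeted lncRNA, listed under a clone-based name, stood at 4.17 ± 0.52 RPM in controls and 0.556 ± 0.076 RPM in knockdowns (SD, n = 3), or 13.3% of control. RPM is reads per 1000000 reads of the effective library size. Reads in genes ran from 30271192 to 50913672 in controls and from 22117324 to 27882280 in knockdowns, so every knockdown library was shallower and depth and group cannot be told apart by the libraries. By counting error alone, a listed 0 is compatible with up to 3 reads, which is 0.0596 to 0.134 RPM depending on the library. All 8 fibroblast markers of a list of 24 cell type markers, 23 of them found, were at 0.5 RPM or more in controls. Their summed level was 15189 to 16371 RPM in controls and 10692 to 11119 RPM in knockdowns, but the members went both ways, with 5 lower (COL1A1, COL1A2, VIM, PDGFRB and DCN) and 3 higher (COL3A1, LUM and THY1) by limma. None of the 3 immune markers reached 0.5 RPM in controls (0 of 3), with sums of 0.133 to 0.298 RPM in controls and 0.269 to 0.570 RPM in knockdowns. Smooth muscle markers summed to 23.6 to 24.6 RPM in controls and 18.4 to 19.5 RPM in knockdowns. Within this list CNN1 fell, from a mean of 16.5 RPM in controls to 11.2 RPM in knockdowns. MYH11 was not called (7.22 and 7.44 RPM), and DES was not tested. Summed levels in controls and knockdowns were 1.67 to 1.83 and 2.20 to 2.60 RPM for 2 endothelial markers, 7.26 to 8.08 and 5.60 to 6.40 RPM for 4 epithelial markers, and 36.0 to 36.6 and 34.8 to 42.6 RPM for 3 neuronal markers. The endothelial gene CDH5 had no reads in controls, and VWF rose. KRT8 held most of the epithelial sum (mean of 7.33 RPM in controls) and fell. EPCAM was not called, and CDH1 and SFTPC were not tested. SYT1 held most of the neuronal sum (means of 34.9 RPM in controls and 37.4 RPM in knockdowns) and was not called. SNAP25 fell, and RBFOX3 was not tested. The part of these shifts in the results below was not tested. In bulk RNA, fewer cells of a type and less RNA per cell cannot be told apart.

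Senescent control cells expressed a minority of the potassium channel genes. At a level of at least 0.5 RPM in all 3 control libraries, 23 of 94 genes (24.5%) were expressed, against 60.7% of all protein-coding genes. The expressed set held 8 of 39 voltage-gated pore genes, 4 of 13 voltage-gated auxiliary genes, 5 of 12 calcium- or sodium-activated channel genes, 3 of 15 inward rectifiers and 3 of 15 tandem-pore-domain genes. More than 3 reads in every control library were found for 36 genes, and 18 genes had no reads in any of the 6 libraries. Among the latter were KCNA1, KCNA4 and KCNA5, pore subunits of the Shaker family, and the acid-sensitive channel gene KCNK5.

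Levels were compared between genes per kilobase of exon. KCNF1, an electrically silent voltage-gated subunit, had 3.60 ± 0.22 RPM per kb in controls (SD, n = 3). KCNMA1, the pore of the large-conductance calcium-activated BK channel, had 3.46 ± 0.10 RPM per kb, a difference from KCNF1 that lay within the spread between libraries. Next came KCNE4, an inhibitory auxiliary subunit, with 2.26 ± 0.25 RPM per kb. KCNK2, which encodes the stretch-activated channel TREK-1, had 1.54 ± 0.25 RPM per kb, and KCNN4, the intermediate-conductance calcium-activated channel of non-excitable cells, had 1.26 ± 0.16 RPM per kb. KCNK2 and KCNN4 did not differ beyond their spread. The annotated exons of KCNMA1 cover 35644 bases, and on the length of its longest transcript (12071 bases) its control level was 10.2 RPM per kb, the highest of the 94 genes; on that scale KCNF1 remained at 3.60 RPM per kb, and the same 5 genes held the first 5 ranks.

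**Figure D1:**
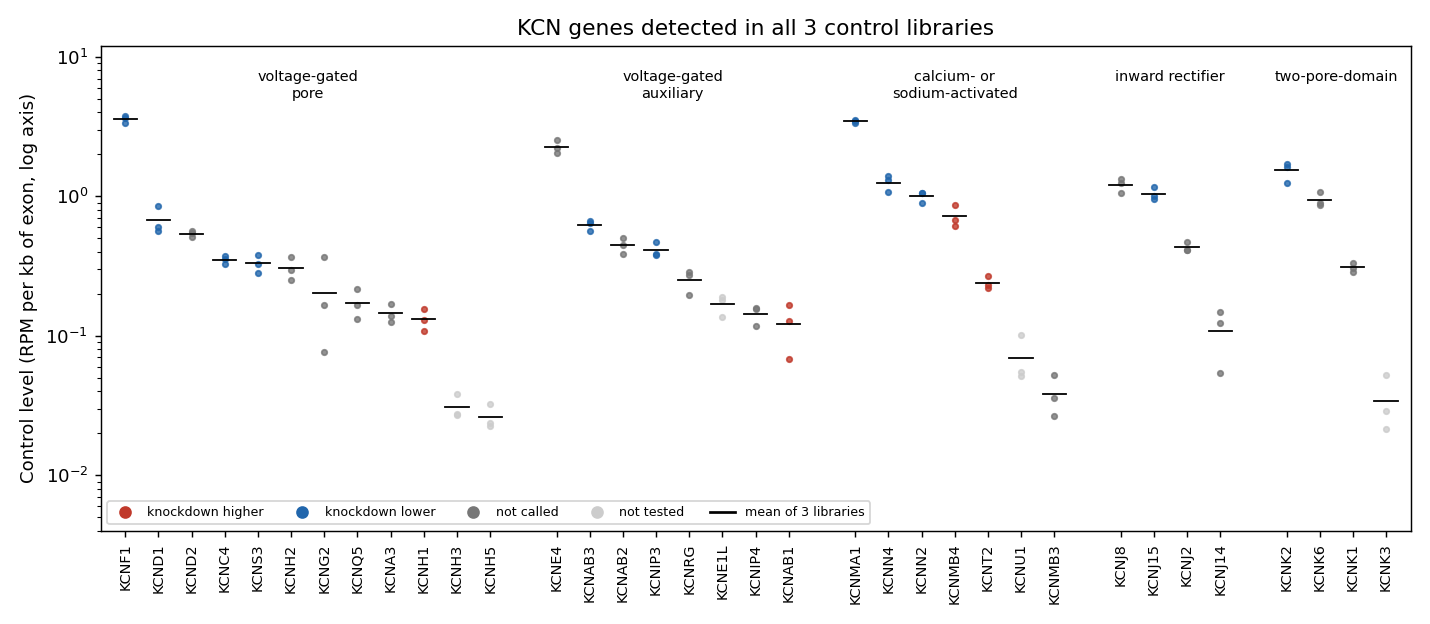
Control level of 35 of the 36 KCN genes with more than 3 reads in every control library, in RPM per kb of exon on a log axis, by family. Points are the 3 control libraries and bars their mean; colours give the call in the knockdown. KCNF1 and KCNMA1 lead at 3.60 and 3.46 RPM per kb.

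Genes were tested if their mean over the 6 libraries was 10 normalized reads or more, and 33 of 94 genes qualified. Of these 33, 15 changed after sin-lncRNA knockdown (45.5%), where 41.0% of all 19048 genes tested and 48.6% of the protein-coding genes tested changed (limma on the deposited log2 values, Benjamini-Hochberg adjusted p under 0.05). The share of potassium channel genes changed was thus near the background. By direction, 11 of 33 fell (33.3%, against 23.5% of all genes tested and 26.4% of protein-coding genes), and 4 rose (12.1%, against 17.5% and 22.2%). The median log2 fold change was -0.05 over the 33 genes and -0.04 over all genes tested. The median of the potassium channel genes moved to 0.075 when genes with few reads were kept, to -0.34 when a mean of at least 50 reads was asked for, and to 0.050 without knockdown replicate 2. Over all genes tested, the median in the same fits was 0.075, -0.0455 and -0.039. The number that rose was 2 without knockdown replicate 3. The genes that fell were KCNN2, KCND1, KCNAB3, KCNN4, KCNS3, KCNIP3, KCNMA1, KCNC4, KCNK2, KCNF1 and KCNJ15. The genes that rose were KCNAB1, KCNH1, KCNMB4 and KCNT2. By read number, 8 of the 11 genes with 100 or more mean reads were called, 7 of the 14 with 20 to 100, and 0 of the 8 with fewer than 20. Of those 8, none had an unadjusted p under 0.05 in limma (0 of 8). The shares of all genes called in the same read ranges were not worked out. These counts are thus no result about the potassium channel genes.

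In size, the 15 changes had a median of 0.63 on the log2 scale, against 0.39 for all genes called. Both medians are over called genes only and were not matched for read number, on which the size needed for a call depends. Control and knockdown libraries did not overlap for 15 of the 33 genes (45.5%, against 51.1% of all genes tested). These were the called genes other than KCNK2, and KCNK6. For non-overlapping groups the exact two-sided permutation p was 0.1, and 3 libraries against 3 can give no smaller one. Of the 15 called genes, 10 kept their call and direction in all 14 alternative analyses planned. The 5 that lost their call in at least 1 of them were KCNT2, KCNJ15, KCNK2, KCNAB1 and KCNS3. Of the 33 tested genes, 22 overlap another listed gene, 10 of them called, and reads in such overlaps are uncertain.

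**Figure D2:**
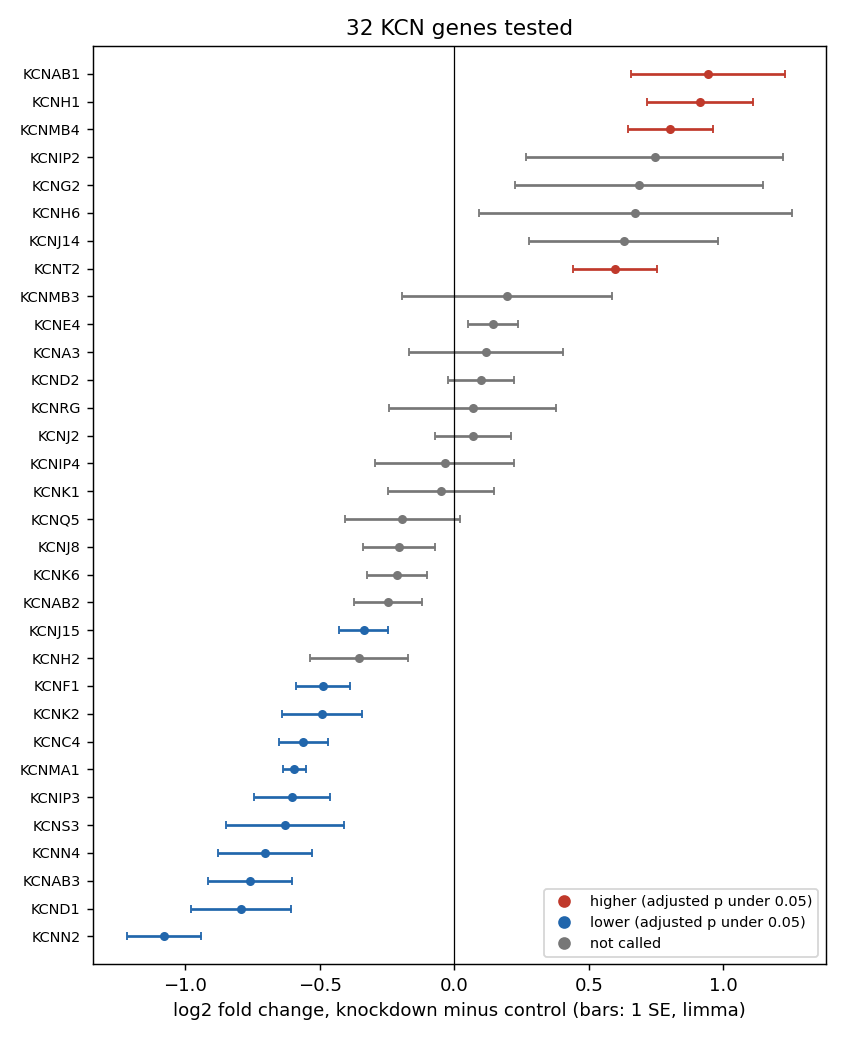
log2 fold change (knockdown minus control) of 32 of the 33 KCN genes tested, with bars of 1 SE from limma. KCNN2 lies lowest at -1.08 and KCNAB1 highest at 0.94; grey genes did not pass an adjusted p of 0.05.

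**Figure D3:**
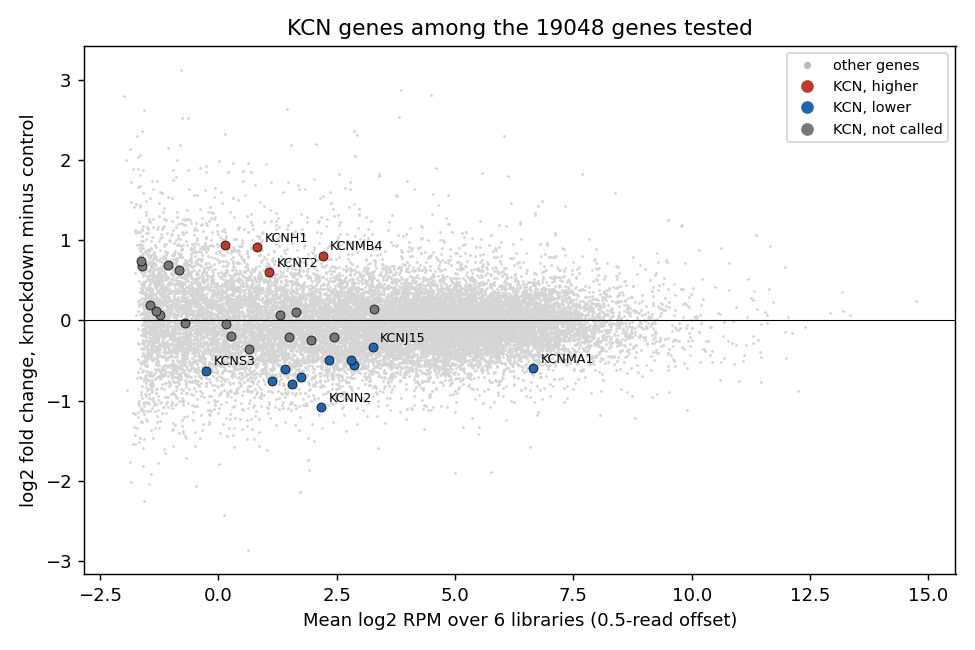
log2 fold change against mean log2 level for all 19048 genes tested (grey) with 32 of the 33 KCN genes tested on top. Called KCN genes lie between -1.08 and 0.94, and KCNMA1 stands apart by its level.

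The sequence before the start of KCNMA1 and KCNF1, the genes of the set with the most RNA per kilobase in controls, and of KCNH1, which rose, is shown so that it can be set beside the changes. Sequences are RefSeq windows of GRCh38.p14, the 250 bases before a gene start, 5′ to 3′ on the gene's strand. Capitals mark matches, on either strand, to a CRE (TGACGTCA), an AP-1 site (TGANTCA), an E-box (CACGTG), a GC box (GGGCGG) or a TATA box (TATAAA). Different motifs did not overlap in the windows shown, but neighbouring GC boxes can run into each other. RefSeq gives KCNMA1 a first start and an internal one.
KCNMA1 first start, chr10:77637809-77638058, minus strand: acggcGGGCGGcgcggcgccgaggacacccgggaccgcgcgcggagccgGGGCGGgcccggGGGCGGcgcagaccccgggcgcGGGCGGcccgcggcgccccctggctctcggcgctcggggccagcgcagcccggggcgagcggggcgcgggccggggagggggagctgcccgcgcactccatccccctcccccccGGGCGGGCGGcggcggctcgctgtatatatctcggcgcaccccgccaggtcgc
KCNMA1 internal start, chr10:77350762-77351011, minus strand: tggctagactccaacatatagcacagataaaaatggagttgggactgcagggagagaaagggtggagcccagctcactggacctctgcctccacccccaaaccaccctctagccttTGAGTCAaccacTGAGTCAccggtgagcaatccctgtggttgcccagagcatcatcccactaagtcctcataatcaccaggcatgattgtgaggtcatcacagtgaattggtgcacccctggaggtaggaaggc
KCNF1, chr2:10911684-10911933, plus strand: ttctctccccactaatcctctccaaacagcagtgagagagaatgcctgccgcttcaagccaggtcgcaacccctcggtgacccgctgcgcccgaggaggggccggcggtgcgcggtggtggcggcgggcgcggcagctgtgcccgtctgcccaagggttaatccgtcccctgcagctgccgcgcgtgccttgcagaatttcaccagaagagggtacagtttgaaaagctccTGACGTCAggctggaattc
KCNH1, chr1:211134149-211134398, minus strand: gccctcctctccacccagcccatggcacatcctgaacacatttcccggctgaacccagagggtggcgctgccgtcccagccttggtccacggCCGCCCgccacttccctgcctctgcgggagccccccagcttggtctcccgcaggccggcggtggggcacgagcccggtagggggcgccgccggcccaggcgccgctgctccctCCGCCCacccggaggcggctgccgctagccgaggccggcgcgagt
The first KCNMA1 window is 85.6% G and C with 6 GC boxes, whereas the internal one is 53.6% G and C with 2 AP-1 matches and no GC box. The KCNF1 window holds the single CRE found among the windows of the potassium channel genes. The KCNH1 window holds 2 GC boxes, and the window of KCNN2, the gene with the largest fall, holds no match to the 5 motifs. Windows were found for 70 of the 94 genes, with 108 windows in all. GC boxes were in a window of 7 of 10 fallen genes, 2 of 3 risen genes and 13 of 16 genes tested but not called, and in 42.6% of all 35116 windows. AP-1 matches were in windows of 2 of 10 fallen genes (KCNMA1 and KCNJ15), 1 of 3 risen genes (KCNAB1) and 3 of 16 not called, and in 6.57% of all windows. TATA boxes were in windows of 0 of 10 fallen genes, 2 of 3 risen genes (KCNAB1 and KCNT2) and 4 of 16 not called, and in 10.7% of all windows. E-boxes were in windows of 1 of 10 fallen genes (KCNN4), 1 of 3 risen genes (KCNAB1) and 2 of 16 not called, and in 6.34% of all windows, and the CRE was in 1.65% of all windows. The counts above are by gene, whereas the shares of all windows are by window. Counted by window, GC boxes were in 52 of the 108 windows of potassium channel genes and AP-1 matches in 9. TATA boxes were in 9, E-boxes in 7 and the CRE in 1 of these windows. A gene with several starts has several windows and so more chances of a match, and a match is a description of the letters only.

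Of 12 calcium- and sodium-activated channel genes, 6 were tested and 5 changed: 3 fell and 2 rose. That is 83.3% of only 6 genes, beside 41.0% of all genes tested and 48.6% of protein-coding genes tested. Whether this family differs from the background was not tested. KCNMA1 (ENSG00000156113.16, hg19 chromosome 10, 78629359 to 79398353, minus strand) stood at 119, 126 and 124 RPM in control replicates 1, 2 and 3. In knockdown replicates 1, 2 and 3 it stood at 83.6, 81.6 and 79.8 RPM, all below every control. It fell to 66.3% of control, a log2 fold change of -0.59 (SE 0.04; limma adjusted p = 3.0e-06), on 1866 to 6242 reads per library. The gene overlaps listed noncoding genes on both strands, and as the strand setting of the counting is not stated, part of its reads is uncertain.

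KCNN2 (ENSG00000080709.10, chromosome 5, 113696642 to 113832337, plus strand) encodes a small-conductance calcium-activated SK channel. It had 6.87, 5.86 and 6.87 RPM in the controls and 2.51, 3.42 and 3.38 RPM in the knockdowns. Its log2 fold change of -1.08 (SE 0.14; limma adjusted p = 0.00013) was the largest fall among the potassium channel genes. The other SK genes, KCNN1 and KCNN3, had too few reads to be tested. KCNN4 (ENSG00000104783.7, chromosome 19, 44270685 to 44285409, minus strand) had 4.76, 3.66 and 4.43 RPM in controls and 2.24, 2.31 and 3.42 RPM in knockdowns. Knockdown replicate 3 came nearest to the controls but stayed below them. KCNN4 fell by 0.70 on the log2 scale, to 62.0% of control (log2 fold change -0.70, SE 0.17; limma adjusted p = 0.0080).

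KCNMB4 (ENSG00000135643.4, chromosome 12, 70760056 to 70828072, plus strand) encodes a beta subunit that slows BK gating and alters its toxin and calcium sensitivity. It had 4.23, 3.00 and 3.30 RPM in controls and 4.93, 6.57 and 6.88 RPM in knockdowns, on 90 to 193 reads per library. It thus rose while the pore gene KCNMA1 fell, by a log2 fold change of 0.80 (SE 0.16; limma adjusted p = 0.0022). The beta subunit gene KCNMB3 had 0.343 ± 0.115 RPM in controls and 0.395 ± 0.158 RPM in knockdowns (SD, n = 3), on 5 to 15 reads per library, and was not called. KCNMB1 and KCNMB2 were not tested. KCNT2 (ENSG00000162687.12, chromosome 1, 196194909 to 196578355, minus strand), a sodium-activated channel gene, had 1.64, 1.90 and 1.57 RPM in controls and 2.24, 2.56 and 2.96 RPM in knockdowns. All of its knockdown libraries lay above the controls, and it rose by 0.60 on the log2 scale (SE 0.16; limma adjusted p = 0.011). KCNT2 missed the threshold without control replicate 3 or without knockdown replicate 3 (limma adjusted p = 0.0502 in both).

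Within the set of 94, from which KCNG1 is left out, KCNMA1 held more reads than all other members together in each control library, and fewer in each knockdown library. The 94 genes summed to 225.26, 225.33 and 224.06 RPM in control replicates 1, 2 and 3 and to 168.4, 168.96 and 170.95 RPM in the knockdowns. KCNMA1 made up 54.8% ± 1.7 of this sum in controls and 48.2% ± 1.5 in knockdowns (SD, n = 3). Without it, the sums were 101.6 ± 3.8 and 87.8 ± 3.2 RPM, still with no overlap between the groups. Set against the BK pore, KCNMB4 gave 35.5, 23.7 and 26.6 reads per 1000 KCNMA1 reads in controls and 58.95, 80.5 and 86.2 in knockdowns. This ratio was chosen after the values of both genes were seen, and it compares reads, not subunits, since the genes differ in length. For each of these 4 quantities the exact two-sided permutation test gave p = 0.1, its smallest value here.

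**Figure D4:**
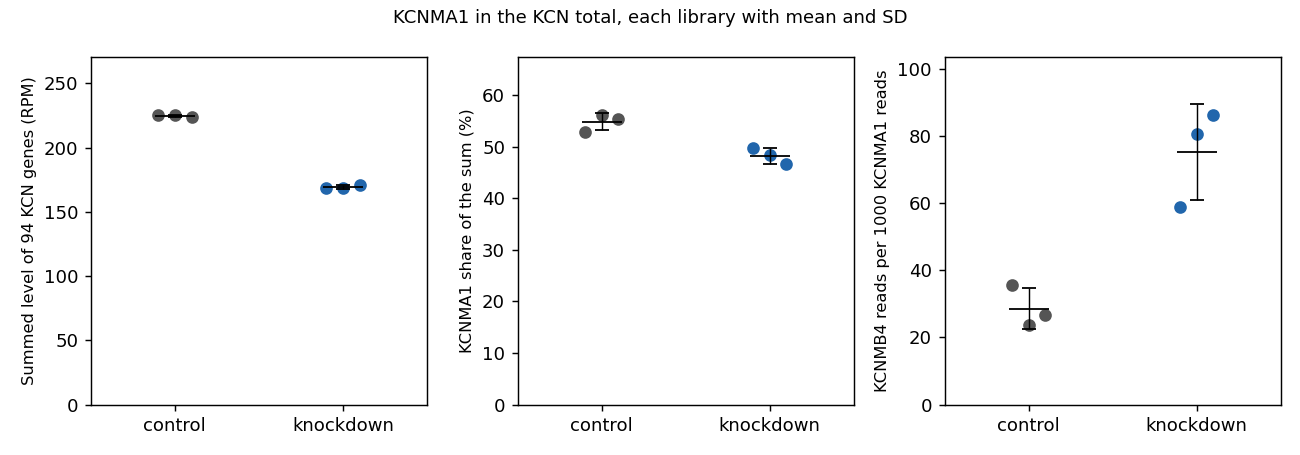
Summed level of the 94 KCN genes, the KCNMA1 share of it, and KCNMB4 reads per 1000 KCNMA1 reads, with each library as a point and the mean and SD as bars. The sum goes from about 225 to about 169 RPM while the KCNMB4 ratio goes from 28.6 to 75.2, with no overlap between groups.

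Of the 39 voltage-gated pore genes, 12 were tested, of which 4 fell, 1 rose and 7 were not called. The share called was 41.7%, beside 41.0% of all genes tested. KCND1 (ENSG00000102057.5, chromosome X, 48818639 to 48827976, minus strand), a Kv4 gene of fast A-type currents, had 4.99, 3.30 and 3.52 RPM in controls and 2.73, 1.88 and 2.14 RPM in knockdowns. The controls spread widely, but the groups did not overlap, and KCND1 fell to 57.2% of control (log2 fold change -0.79, SE 0.19; limma adjusted p = 0.0061). The other expressed Kv4 gene, KCND2, had 3.00 ± 0.15 RPM in controls and 3.22 ± 0.28 RPM in knockdowns (SD, n = 3; log2 fold change 0.10, SE 0.12; limma adjusted p = 0.547). Whether the 2 genes differ in response was not tested.

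KCNC4 (ENSG00000116396.9, chromosome 1, 110753965 to 110825722, plus strand), a Kv3 gene of fast-inactivating currents, had 8.84, 9.39 and 8.17 RPM in controls and 5.60, 6.23 and 6.02 RPM in knockdowns. Both groups were tight and apart, and KCNC4 fell by 0.56 on the log2 scale (SE 0.09; limma adjusted p = 0.00067). The silent subunit gene KCNF1 (ENSG00000162975.3, chromosome 2, 11052063 to 11054350, plus strand) had 8.69, 7.69 and 8.35 RPM in controls and 5.29, 6.49 and 5.88 RPM in knockdowns. It fell to 71.4% of control (log2 fold change -0.49, SE 0.10; limma adjusted p = 0.0029), and it overlaps no other listed gene. KCNS3 (ENSG00000170745.7, chromosome 2, 18059114 to 18542882, plus strand), another silent subunit, had 0.881, 1.03 and 1.19 RPM in controls and 0.717, 0.683 and 0.570 RPM in knockdowns, on 16 to 60 reads per library. Its log2 fold change was -0.63 (SE 0.22; limma adjusted p = 0.040), and the call was lost without control replicates 2 or 3 or knockdown replicates 2 or 3 (limma adjusted p from 0.062 to 0.164), and with the replicate number as a block (0.079).

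KCNH1 (ENSG00000143473.7, chromosome 1, 210856555 to 211307457, minus strand), the EAG1 channel gene known for its expression in tumours and its link to the cell cycle, was the single voltage-gated pore gene that rose. It had 1.06, 1.27 and 1.53 RPM in controls and 1.93, 2.86 and 2.49 RPM in knockdowns. The lowest knockdown library lay above the highest control, and the log2 fold change was 0.91 (SE 0.20; limma adjusted p = 0.0036). KCNH2, the related HERG channel gene, had 1.79 ± 0.36 RPM in controls and 1.37 ± 0.09 RPM in knockdowns (SD, n = 3), and was not called (log2 fold change -0.35, SE 0.18; limma adjusted p = 0.145). KCNQ5, an M-current gene, had 1.29 ± 0.32 and 1.10 ± 0.10 RPM and was not called. KCNA3, KCNG2 and KCNH6 had means of 0.318 to 0.439 RPM in controls and 0.394 to 0.596 RPM in knockdowns, and none was called (adjusted p from 0.263 to 0.771 in limma). KCNG2 was called once control replicate 1 was left out (limma adjusted p = 0.030).

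**Figure D5:**
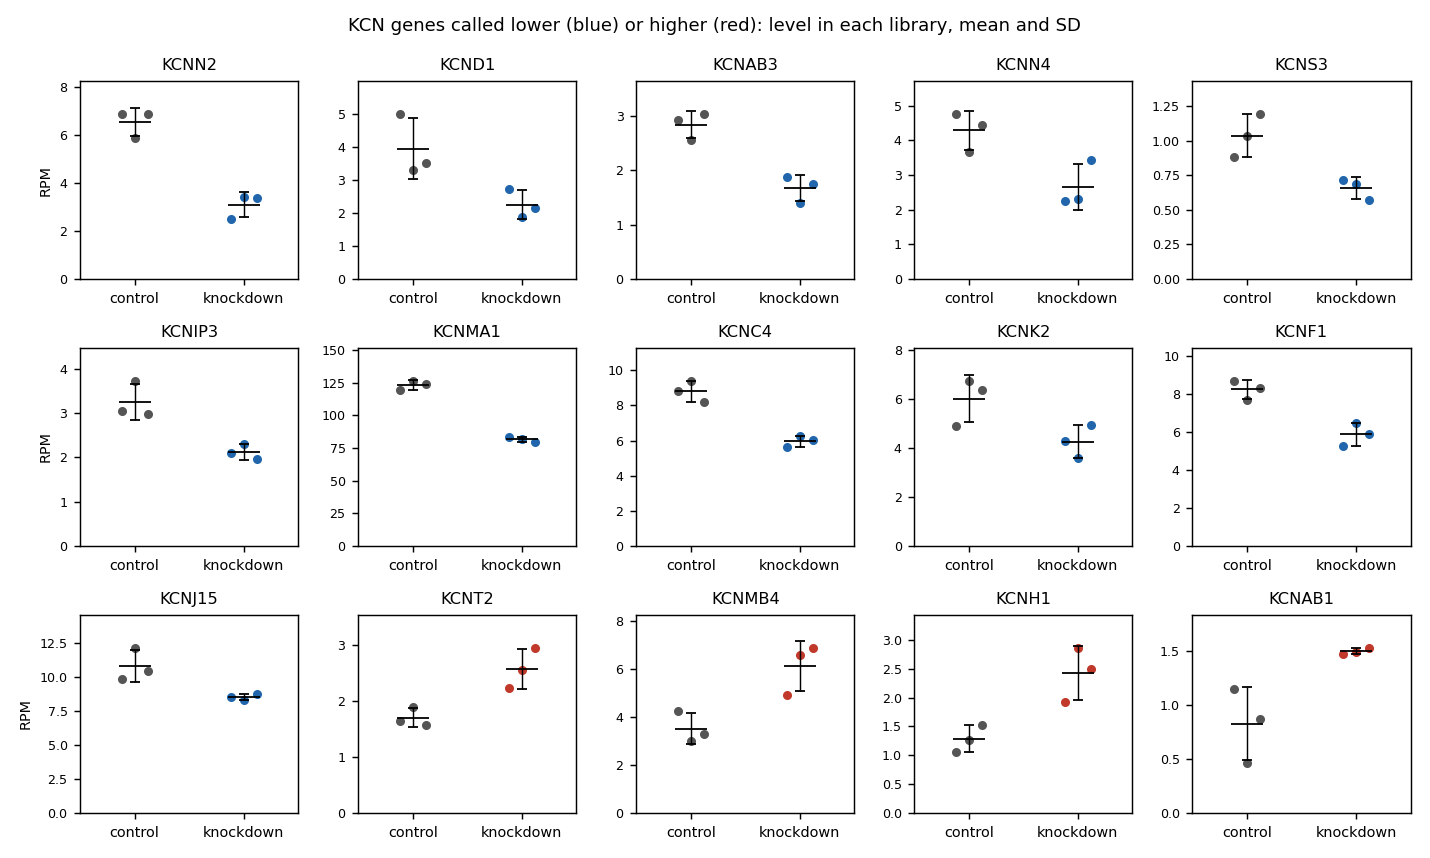
Level in RPM of the 15 called KCN genes in each control (grey) and knockdown library (blue where lower, red where higher), with mean and SD over 3 libraries. Groups overlap in KCNK2, where the highest knockdown library (4.92 RPM) reaches the lowest control (4.90 RPM).

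Auxiliary subunits of voltage-gated channels went in both directions. Of 13 genes, 8 were tested, of which 2 fell, 1 rose and 5 were not called (37.5% called, beside 41.0% of all genes tested). The 3 genes for Kv beta subunits, cytoplasmic proteins that bind Shaker-type channels, were all tested. KCNAB3 (ENSG00000170049.5, chromosome 17, 7825177 to 7833121, minus strand) had 2.94, 2.56 and 3.04 RPM in controls and 1.88, 1.41 and 1.75 RPM in knockdowns. It fell to 59.0% of control (log2 fold change -0.76, SE 0.16; limma adjusted p = 0.0028). KCNAB1 (ENSG00000169282.13, chromosome 3, 155755490 to 156256545, plus strand) had 1.15, 0.466 and 0.874 RPM in controls and 1.48, 1.49 and 1.53 RPM in knockdowns. Control replicate 2 was the low one, with 14 reads. KCNAB1 rose by a log2 fold change of 0.94 (SE 0.29; limma adjusted p = 0.022), which was 0.59 once control replicate 2 was left out (limma adjusted p = 0.047). The call was lost without any one of the knockdown libraries (limma adjusted p from 0.051 to 0.067). KCNAB2 had 4.25 ± 0.58 RPM in controls and 3.56 ± 0.24 RPM in knockdowns (SD, n = 3) and was not called (limma adjusted p = 0.151).

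KCNIP3 (ENSG00000115041.8, chromosome 2, 95963052 to 96051825, plus strand) encodes a calcium-binding partner of Kv4 channels that is also known as the transcriptional repressor DREAM. It had 3.05, 3.73 and 2.98 RPM in controls and 2.11, 2.31 and 1.96 RPM in knockdowns, with no overlap. KCNIP3 fell by a log2 fold change of -0.60 (SE 0.14; limma adjusted p = 0.0058), as did the Kv4 gene KCND1 described above. Its relatives KCNIP2 and KCNIP4 had means of 0.276 and 0.613 RPM in controls and were not called. KCNE4 (ENSG00000152049.5, chromosome 2, 223916532 to 224063117, plus strand) had 10.4, 9.12 and 8.42 RPM in controls and 10.4, 9.86 and 10.5 RPM in knockdowns. The groups overlapped, and the log2 fold change was 0.15 (SE 0.09; limma adjusted p = 0.235). KCNRG, which encodes a soluble protein that interferes with channel assembly, had 0.408 ± 0.079 and 0.425 ± 0.110 RPM; it overlaps TRIM13, which has the same orientation, and its reads may be shared.

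Inward rectifiers pass potassium more readily into the cell than out of it. Of 15 genes, 4 were tested, of which 1 fell and 3 were not called (25.0% called, beside 41.0% of all genes tested). KCNJ15 (ENSG00000157551.13, chromosome 21, 39529128 to 39679279, plus strand) ranged from 9.87 to 12.2 RPM in controls and from 8.28 to 8.76 RPM in knockdowns. Its log2 fold change was -0.34 (SE 0.09; limma adjusted p = 0.013), the smallest of the 15 calls, and the call was lost without control replicate 2 (limma adjusted p = 0.054). KCNJ8, the pore of the ATP-sensitive channel of smooth muscle and other mesenchymal cells, had 3.01 ± 0.34 RPM in controls and 2.59 ± 0.16 RPM in knockdowns (SD, n = 3; limma adjusted p = 0.252). KCNJ2, the strong inward rectifier that holds the resting potential, had 2.40 ± 0.18 and 2.51 ± 0.29 RPM (limma adjusted p = 0.731). KCNJ14 had 0.472 ± 0.214 and 0.674 ± 0.043 RPM and was not called. KCNJ11, the other ATP-sensitive pore gene, was not tested.

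Tandem-pore-domain channels carry the background leak of potassium. Of 15 genes, 3 were tested, and KCNK2 alone was called (33.3%, beside 41.0% of all genes tested). KCNK2 (ENSG00000082482.9, chromosome 1, 215179118 to 215410436, plus strand) had 4.90, 6.73 and 6.38 RPM in controls and 4.26, 3.59 and 4.92 RPM in knockdowns. Control replicate 1 and knockdown replicate 3 met, and the exact permutation test gave p = 0.2. KCNK2 fell by a log2 fold change of -0.49 (SE 0.15; limma adjusted p = 0.021), and the call was lost without control replicates 2 or 3 or knockdown replicate 2 (limma adjusted p from 0.061 to 0.086). KCNK6 had 5.84 ± 0.72 RPM in controls and 5.01 ± 0.21 RPM in knockdowns (SD, n = 3), with every knockdown library below every control, but was not called (limma adjusted p = 0.151). KCNK1 had 1.12 ± 0.09 and 1.08 ± 0.19 RPM (limma adjusted p = 0.867).

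The 61 genes that were not tested had group means of at most 0.324 RPM. That highest value was of KCNH5, an EAG2 channel gene, with 10, 12 and 14 reads in controls and 3, 4 and 3 reads in knockdowns. The other untested genes with more than 3 reads in every control library were KCNH3, KCNE1L, KCNU1 and KCNK3, with control means of 0.134 to 0.275 RPM. Their knockdown means were 0.0844 to 0.222 RPM, and no difference could be judged at this depth. At 0.5 RPM in all 3 libraries, 26 genes were expressed in knockdowns, the same 23 as in controls and 3 more. KCNAB1 and KCNJ14 were among these 3, and KCNAB1 was the one called.

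A list of 34 genes for channel partners, potassium transport and calcium entry was set beside the channels. Of 34 genes, 20 were tested, of which 5 rose, 9 fell and 6 were not called, and the median of the 20 log2 fold changes was -0.22, beside -0.04 and 41.0% called for all genes tested. ABCC9, the sulfonylurea receptor that pairs with KCNJ8, had 2.60 ± 0.77 RPM in controls and 1.58 ± 0.15 RPM in knockdowns (SD, n = 3; log2 fold change -0.67; limma adjusted p = 0.022). The ABCC9 call was lost without control replicates 2 or 3 or knockdown replicates 2 or 3 (limma adjusted p from 0.060 to 0.085), and with the replicate block (0.0505). HCN2, a pore gene of the hyperpolarization-activated cation current, fell from 2.59 ± 0.17 to 1.57 ± 0.07 RPM (log2 fold change -0.71, SE 0.14; limma adjusted p = 0.0020). ATP1B1, a beta subunit gene of the sodium pump, rose from 29.8 ± 0.7 to 37.2 ± 0.7 RPM (log2 fold change 0.32, SE 0.05; limma adjusted p = 0.00057). SLC12A2, a cotransporter that brings sodium, potassium and chloride in, rose by a log2 fold change of 0.30 (SE 0.05; limma adjusted p = 0.0012). SLC12A4, a cotransporter that carries potassium and chloride out, rose as well (log2 fold change 0.28). ORAI1 and STIM1, the pore and the sensor of store-operated calcium entry, both fell (log2 fold changes -0.51 and -0.41), and the stretch-activated channel gene PIEZO1 rose (0.44). The BK gamma subunit genes LRRC38, LRRC52, LRRC55 and LRRC26 had no reads in any library.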

How the data were processed

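Poly-A RNA of 6 libraries was read as single 50 bp reads, per the labels' protocols. The authors deposited log2 values, worked out from the values as log2 of reads plus 0.5 per 1000000 reads of an effective library size; undoing this gave whole reads (within 0.001) for 100% of values. Bowtie2, featureCounts and hg19 are named in the submitters' processing notes; strand setting and annotation release are not given in the sources used here. Coordinates are the table's. Exon lengths came from GENCODE 29 (GRCh38), matched by gene ID for all 94 genes; windows before gene starts came from RefSeq.

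limma 3.58.1 (R 4.3.3; lmFit, eBayes with trend) was fitted to the deposited log2 values of the 19048 genes with a mean of at least 10 normalized reads, group as sole term, two-sided, Benjamini-Hochberg adjusted over all of them. Fold changes carry the 0.5-read offset, which adds more RPM in the shallower knockdown libraries. For low genes it can therefore shift fold changes upward as well as shrink them. The fit was also run on simulated reads, with far fewer changed genes than were called here. That run does not measure the error rate on these libraries. Called genes are all named; values by library are given for the 8 largest rises and falls with 20 or more mean reads, the 5 highest levels per kb, and called genes of families with 3 or fewer tested; other members are given by range and up to 4 examples a family, those with the most reads. Some genes are counted but not reported here by name. The rule for the members uses gene names only, but the potassium channel genes as a topic, and the partner and marker lists, were chosen with earlier results of these data known. Alternatives were voom, a pseudocount of 1 RPM, no filter, a mean of 50 reads, library totals, thinning, no trend, each library left out, and a replicate block.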

Additional observations from a re-analysis of the deposited data

How the results depend on the processing

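The number of potassium channel genes changed was 15 as reported and 12 to 16 when a library was left out (2 to 5 higher, 8 to 11 lower); the count of higher genes was 2 without knockdown replicate 3. It was 13 without an intensity trend or with a mean of at least 50 reads, 12 after thinning, and 11 when a log2 fold change of 0.58 or more in size was asked for too, a threshold chosen after seeing the data. Without a filter the count was again 15, with KCNQ3 (at most 7 reads per library) called and KCNS3 not. The median log2 fold change of the potassium channel genes was 0.075 without a filter, -0.336 with a mean of at least 50 reads and -0.177 after thinning. Over all genes tested it was 0.075, -0.0455 and -0.043 in the same fits. The range for the potassium channel genes was -0.182 to 0.050 over fits that left out a library. The values without a filter and with at least 50 reads follow from the genes kept or removed, and the cause of the others was not tested. At 0.1 RPM instead of 0.5, 36 genes counted as expressed in controls, by construction. Genes that were not called and changed direction were KCNIP4 (0.008 with voom, 0.077 after thinning, -0.182 to 0.115 with a library left out), KCNQ5 (0.019 after thinning), KCNMB3 (-0.047 to 0.535), KCNJ2 (-0.018 to 0.148), KCNK1 (-0.173 to 0.078), KCNRG (-0.103 to 0.258) and KCNH6 (-0.143 to 1.128), the last 5 with a library left out. KCNK2 and KCNAB1 also missed the threshold after thinning and without a trend, and KCNS3 after thinning and without a filter.

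Correlations of deviations from the group mean were -0.149, -0.183 and 0.065 between libraries of equal replicate number. Between unequal numbers they ran from -0.076 to 0.204. With so few libraries, these values cannot tell whether equal numbers were prepared together. With the replicate block 14 potassium channel genes and 6454 of all genes changed; KCNS3 was the gene lost, and ABCC9 and STK39 were lost among the partner genes. Depth limits genes under about 0.5 RPM, which had 2 to 27 reads per library where tested.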

Other observations

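The table lists 15 further rows whose symbol starts with KCN and that are not protein-coding: antisense and sense-intronic genes and a pseudogene. KCNQ1OT1, the imprinted antisense RNA of the KCNQ1 locus, was the abundant one, with 8.16, 6.96 and 6.76 RPM in control replicates 1, 2 and 3 and 11.3, 10.5 and 11.4 RPM in knockdowns. All knockdown libraries lay above all controls, and it rose by 0.61 on the log2 scale (SE 0.09; limma adjusted p = 0.00042; 41.0% of all genes tested were called). Each of the 14 others had a control mean of at most 0.207 RPM, the highest being KCNJ2-AS1, and KCNAB1-AS1 and KCNAB1-AS2 had no reads in any library although KCNAB1 was among the genes that rose.

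Of the 33 potassium channel genes tested, the lowest control library was replicate 2 for 16, replicate 1 for 9 and replicate 3 for 8. Of the 10 with a control mean under 1 RPM, replicate 2 was lowest for 5, with 2 reads for KCNH6, 3 for KCNIP2, 5 for KCNG2, 7 for KCNJ14 and 14 for KCNAB1.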
